A study of Oryza sativa with 81 samples.

Results

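In 24 of 38714 gene models, 4 rice hybrids had levels that set them apart from their 4 parents and from the other hybrid of the series, with the same sign in 3 tissues. The parental lines were WFB, RFB, R998 and R308. The 4 hybrids were the F1 crosses of WFB or RFB with R998 or R308, named WY998 (WFB with R998), WY308 (WFB with R308), RY998 (RFB with R998) and RY308 (RFB with R308). The other hybrid, WR (WFB with RFB), was grouped with the parents. The plants grew in a field, and RNA came from seedlings, from young panicles and from panicles during grain filling, with 3 libraries per line and tissue, 81 in all. Where 3 values follow each other for the 3 tissues, they stand in that order. Each tissue therefore had 12 libraries of the 4 hybrids and 15 libraries of the 5 other lines. The labels name no treatment, age or transgene, do not say which line of a cross bore the seed, and do not say whether the libraries of a group came from separate plants. The p-values therefore measure only the spread between these libraries, which may be technical.

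The gene models were chosen by their measured levels. Counts were scaled to 1000000 per library total (CPM), and line means of log2(CPM + 0.5) were taken in each tissue. The difference d is the mean of the 4 hybrids minus the mean of the 5 other lines. A gene model qualified if d had 1 sign in 3 tissues and all 4 hybrid means lay beyond all 5 other means in at least 2 tissues. The rule asked for the 40 with the largest smallest absolute d, but only 24 qualified, so all of them were taken. Of these, 7 were higher and 17 were lower in the 4 hybrids. The difference between these 2 sets of lines is a description throughout, because it chose the genes. Differences among the 4 hybrids, among the 5 other lines and between tissues did not enter d and were tested. The rule limited differences within each set, because the 2 sets of line means had to lie apart in at least 2 tissues. Low shares called and narrow intervals within a set are therefore not read as traits of the members.

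In an F1 hybrid each nuclear gene has an allele from either parent, and a transcript level between the parental levels is the simplest outcome. A level away from the mean of the parents is called non-additive and is studied in rice because of hybrid vigour. The identifiers matched no entry of the gene name table available here, so no function is given and each gene model is named as deposited. The 2 digits after the G of an identifier are called its block, and its rank among the identifiers of that block its place. The files do not say what a block stands for, and places give order, not distance. They also do not say which gene models are nuclear. Mitochondrial and chloroplast genes come from the seed parent, and neither the seed parent nor the cytoplasm of a line is given in the labels. Levels that differ from both parents are therefore not described as non-additive here.

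Library totals ran from 29054241 to 45765805 counts. Block 00 took 43.8% to 56.6% of the counts in young seedlings and at most 11.1% in the panicles, so CPM values of different tissues are not directly comparable. Its median share in young seedlings was 51.2% in the 4 hybrids and 52.1% in the others. Some libraries stood apart. R998 replicate 9 had a mean correlation of 0.935 with its own group across genes, against 0.949 to 0.991 in the filling panicle libraries that did not stand apart. R308 replicate 9 and RY308 replicate 8, also of filling panicles, had counts on 37377 and 34375 gene models, against 23708 to 29270 in 77 others. Without these 3 and RY308 replicate 4, which was left out with them on earlier results, the rule returned 25 gene models, 22 of them among the 24.

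The gene model farthest below was OsR498G0611894900.01. In young seedlings its 12 hybrid libraries ran from 0 to 0.278 CPM with a median of 0.127, while the 15 others ran from 5.64 to 16.1 with a median of 9.30. In young panicles the hybrids had 0.418, 0.796 and 1.38 CPM (lowest, median, highest) and the others 28.9, 38.4 and 48.7 CPM. In filling panicles the hybrids had 0.209, 0.415 and 0.879 CPM and the others 20.3, 34.8 and 111.6 CPM. The libraries did not overlap in any tissue, and WR lay with the parents. The hybrid mean was 1.32%, 1.99% and 1.13% of the mean of the other lines in the 3 tissues. R998 gave the highest filling panicle values, with 111.6 and 109.9 CPM in replicates 7 and 8 but 38.9 CPM in replicate 9, the library that stood apart.

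OsR498G0612784300.01 was the most abundant of the 17 lower gene models per length, with a mean of 648.8 FPKM (a count scaled by gene length and library total) over the 81 libraries. Its seedling libraries ran from 30.3 to 82.3 CPM in the hybrids and from 841.7 to 2204 CPM in the others, with medians of 56.7 and 1230 CPM. The young panicle medians were 15.8 and 287.7 CPM, and the filling panicle medians 8.08 and 156.6 CPM. Again no hybrid library reached the lowest of the others in any tissue: the highest hybrid values were 25.7 and 16.7 CPM in the panicles, and the lowest of the others 234.8 and 84.7 CPM. The ratio of the means was 24.1, 16.5 and 17.5 in the 3 tissues. Both the hybrid and the other level of this gene model fell from seedlings to panicles, as tested below, and the ratio stayed above 16 in each tissue.

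Among the 7 higher gene models, OsR498G0022205200.01 had counts almost only in the 4 hybrids. No count fell on it in the 15 other seedling libraries, where the 12 hybrid libraries ran from 0.517 to 1.41 CPM and together held 476 counts. Taking 3 counts over the group as the floor of the other lines, the hybrids were at least 185.5-fold higher. In young panicles it had 930 counts in the hybrids and 1 in the others, and in filling panicles 738 and 5. Its highest value in any of the other lines was 0.0593 CPM, in filling panicles of WFB, and its lowest in a hybrid panicle library was 1.17 CPM. The levels were low in all lines, with a mean of 2.73 FPKM.

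OsR498G0022212200.01 was higher by a smaller factor at a much higher level. Its seedling libraries ran from 53.7 to 94.5 CPM in the hybrids and from 16.2 to 48.0 in the others, with medians of 75.1 and 25.3 CPM. The young panicle hybrids lay between 229.5 and 339.4 CPM and the others between 49.9 and 175.0 CPM, the latter being WR replicate 5. The filling panicle hybrids lay between 99.4 and 223.7 CPM and the others between 31.1 and 98.2 CPM, so that the closest libraries differed by little over 1 CPM. The hybrid means were 2.62, 3.20 and 2.71 times those of the other lines.

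**Figure D1:**
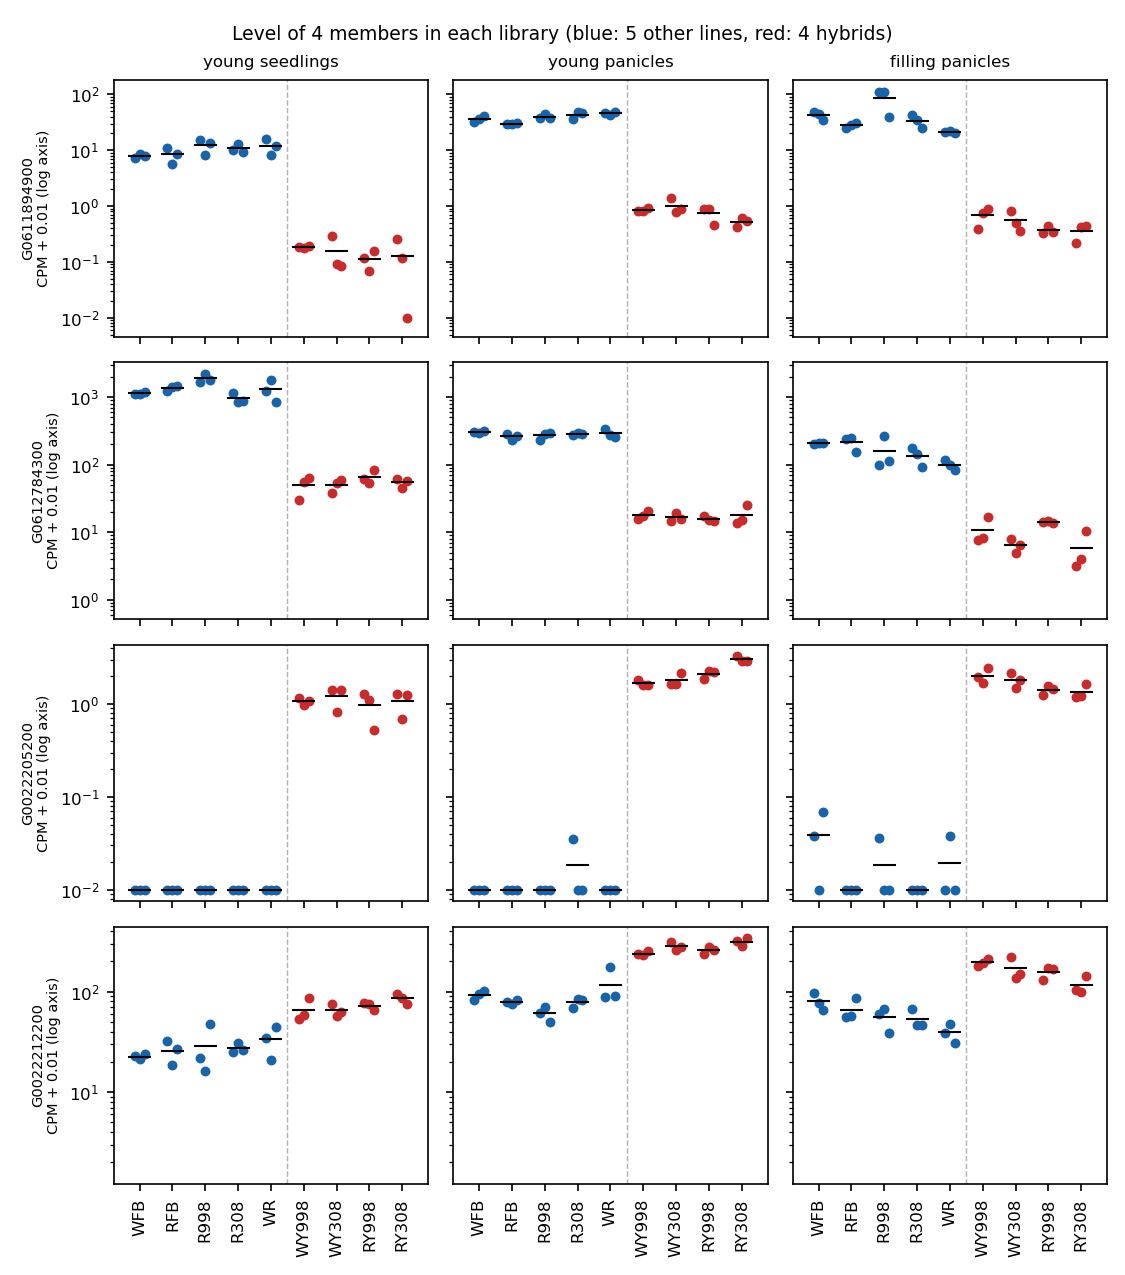
Level of 4 gene models in each library, as CPM + 0.01 on a log axis, with 1 point per library and a bar at the mean of 3 libraries. The 5 other lines are left of the dashed line and the 4 hybrids right of it; no hybrid library overlapped with the others in any of the 12 panels.

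A gene model of block 00 at place 72 showed the opposite of OsR498G0022205200.01; it was picked out after its values were seen. It had no count in the 12 hybrid libraries of young seedlings, where the 15 others ran from 0.501 to 0.980 CPM, at least 104.7-fold higher against the floor of 3 counts over the hybrids. In young panicles it had 1 count in the hybrids and 953 in the others, and in filling panicles 1 and 650. Its highest level was 4.83 CPM in filling panicles of R308 replicate 9, a library that stood apart, while R308 replicates 7 and 8 had 0.793 and 0.702 CPM. All 4 parents had counts on it in each of their libraries. At place 39 of the same block, also picked out after its values were seen, a gene model had hybrid means 20.9, 16.1 and 13.9 times those of the others, at levels below 2 CPM in every library.

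The library values did not overlap between the 4 hybrids and the 5 other lines for 10 of the 24 in seedlings, 14 in young and 12 in filling panicles. Over all gene models with a count, the share that did not overlap was 0.0332% of 30130, 0.0516% of 34865 and 0.0315% of 38097, which is 10, 18 and 12 gene models. The rule used this contrast, so nothing is read from these counts. In 9 of the 24, of which 3 were higher and 6 lower, the libraries did not overlap in any of the 3 tissues, and in 9 others they overlapped in each. All 4 hybrid line means lay beyond the others for 23 in young seedlings and 19 in each panicle tissue. The median absolute d was 0.87, 0.90 and 0.98 in the 3 tissues.

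At the lower end, the differences were small. The last of the 24, OsR498G1222092700.01, had d of 0.08, 0.05 and 0.33, with filling panicle libraries from 11.3 to 19.3 CPM in the hybrids and 9.71 to 17.3 CPM in the others, which overlap. Its seedling levels rested on 15 counts in all hybrid libraries and 3 in the others. There was no gene model ranked just below it, because the rule ran out of candidates. Among gene models with d of 1 sign whose 4 hybrids lay beyond the others in 1 tissue only, OsR498G0101073900.01 had the largest smallest d, of 0.43. The 24 were therefore separated from the 173 gene models of that kind by the number of tissues and not by the size of d.

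**Figure D2:**
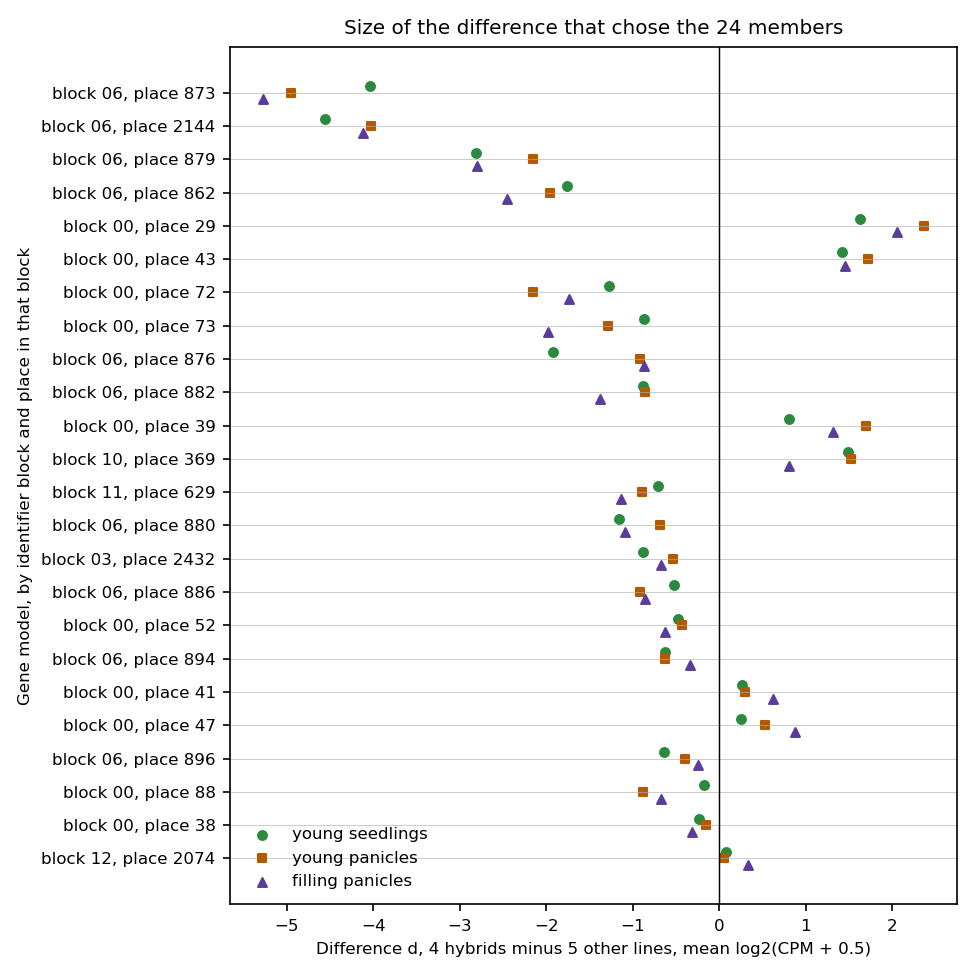
The difference d in log2 units for the 24 gene models in 3 tissues, ordered by the smallest absolute d and named by block and place. The 4 uppermost are in block 06 and lower in the hybrids; values chose the gene models and are shown as a description.

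The 24 were unevenly spread over the blocks, which the rule did not use. Block 06 held 10 of 3169 gene models with counts (0.316%) and block 00 held 10 of 113 (8.85%). Blocks 03, 10, 11 and 12 held 1 each, and the other 7 numbered blocks held none. All 10 of block 06 were lower in the hybrids. Of the 10 of block 00, 5 were higher and 5 lower.

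Of the 10 in block 06, 9 lay within a run of 35 consecutive identifiers, at places 862 to 896 of 3197. The tenth was OsR498G0612784300.01, at place 2144. The run was marked out after the members had been seen. Its lowest member was OsR498G0611894900.01, at place 873. OsR498G0611897500.01, at place 879, had hybrid means of 1.76, 9.02 and 3.37 CPM against 15.2, 38.9 and 26.5 CPM in the other lines, with no overlap of libraries. Across the 9, the hybrid mean was 1.32% to 64.6% of the other lines in seedlings. It was 1.99% to 64.9% in young panicles and 1.13% to 77.4% during filling. The medians of the 9 were 26.2%, 28.9% and 15.7%. The libraries of 4 of the 9 did not overlap in seedlings, those of 6 did not in young panicles and those of 6 did not in filling panicles. The 6 were not all the same: the gene model at place 862 separated in filling panicles only, and OsR498G0611904800.01 in young panicles only. At place 880 the hybrids ran from 6.07 to 24.5 CPM in seedlings and the others from 27.4 to 49.0 CPM, and the panicle libraries did not overlap either. At place 862, the first of the run, single seedling libraries reached 12.1 CPM in the hybrids and 25.5 CPM in the others, against medians of 1.01 and 5.03 CPM, so that the 2 sets overlapped. At place 896, the last, the levels were under 1.2 CPM in every library and the sets overlapped in each tissue.

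The other 26 gene models in the run differed less, and most shared the sign of the 9 in 2 tissues. Of the 26, 21 had d below 0 in seedlings, 8 in young and 20 in filling panicles, with median d of -0.12, 0.08 and -0.14. Over block 06 the median d was 0.01, 0.00 and -0.05. The share of block 06 with d below 0 was not computed, so nothing is read from the shared sign. In 23 of them the hybrids lay beyond the other lines in no tissue, and in 18 the absolute d stayed below 0.5 in every tissue. In 10 the sign of d was shared by the 3 tissues, 7 of them lower and 3 higher. At place 875 d was -1.47, -0.21 and -0.33, with 0.234 CPM in hybrid seedlings and 2.35 CPM in the others; at place 878 d was -0.86, 0.28 and -0.41. Both were picked out after their values were seen. At place 872, next to the lowest member, OsR498G0611894700.01 was higher in the hybrids, with means of 83.9, 56.4 and 36.8 CPM against 8.85, 33.0 and 21.7 CPM; it was picked out after its values were seen. At place 895, between 2 members of the run, a gene model at 1482 CPM in the hybrid seedlings and 1617 in the others had d of -0.11, 0.04 and -0.26. Whether reads of neighbouring or similar genes were shared by the counting was not tested.

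**Figure D3:**
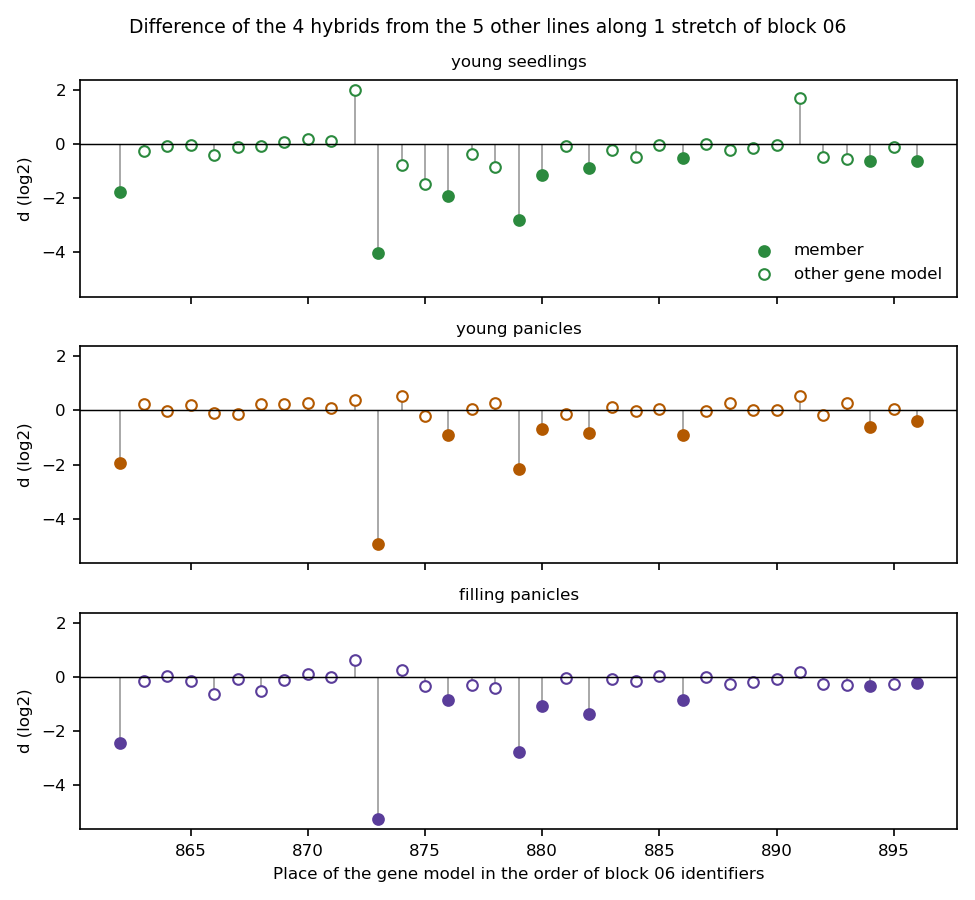
The difference d in log2 units for each of 35 gene models at consecutive places 862 to 896 of block 06, with 1 panel per tissue. Filled points are the 9 chosen gene models, all below 0, and open points the other 26, of which 18 stay within 0.5 of 0 in every tissue.

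The 10 of block 00 lay between places 29 and 88 of 114. Higher and lower ones were mixed: the gene model at place 38 was lower and those at places 39, 41 and 43 were higher. The one at place 38 was the second most abundant per length of the 17 lower, at 512.6 FPKM, and its hybrid means were 84.5%, 89.98% and 80.5% of the others. Among the other 104 gene models of the block, 83 had hybrids beyond the other lines in no tissue and 87 had an absolute d below 0.5 in every tissue. The most abundant one of the block was not among the 24, and its d was -0.07, 0.22 and -0.01. As a set, the 24 took 0.160% to 0.193% of the counts in hybrid seedlings and 0.252% to 0.364% in the other lines. This share sums 7 higher and 17 lower gene models and depends most on abundant ones. OsR498G0612784300.01 alone had seedling means of 55.1 CPM in the hybrids and 1327 CPM in the others, so the gap is not read as a trait of the set. In the panicles the ranges overlapped, with 0.230% to 0.306% against 0.271% to 0.351% in young panicles and 0.175% to 0.268% against 0.225% to 0.334% during filling.

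Outside both blocks, OsR498G1018218000.01 was the most abundant of the 7 higher gene models per length, at 95.7 FPKM. Its seedling libraries ran from 427.1 to 637.5 CPM in the hybrids and from 103.5 to 282.9 CPM in the others. The filling panicle libraries overlapped, with 36.8 to 196.6 CPM against 18.6 to 101.9 CPM. OsR498G1119584300.01 was lower, with hybrid means 59.3%, 54.0% and 43.6% of the others, and its libraries separated in young panicles only. In bulk tissue, fewer cells of a type and less RNA per cell cannot be told apart for any of these values.

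The 4 hybrids were next compared among themselves, to see whether their levels differed with the parents they came from. One member, OsR498G1222092700.01, was too low to be tested in seedlings. Tests used edgeR's quasi-likelihood model within each tissue, with Benjamini-Hochberg adjustment over all genes tested, and levels in these tests are CPM on TMM-adjusted library sizes. WY998 and WY308 were set against RY998 and RY308, which asks about WFB against RFB. None of 23 tested members passed an adjusted p of 0.05 in young seedlings and none of 24 in filling panicles. DESeq2 called 0 and 1. Of the 21 members with at least 0.1 CPM in the higher group in each tissue, 3 and 6 had an unadjusted p under 0.05. The shares called over all genes were 2.14% and 0.363%. In young panicles 4 of 24 passed, 3 higher and 1 lower in the hybrids of WFB, against 20.1% of all genes.

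OsR498G0611894900.01 was at 0.963 CPM in the hybrids of WFB and 0.640 CPM in those of RFB, a log2 change of 0.63 ± 0.17 (SE; edgeR adjusted p = 0.00882). OsR498G1119584300.01 was at 87.4 and 71.0 CPM, a log2 change of 0.30 ± 0.10 (edgeR adjusted p = 0.0419). OsR498G0022205200.01 was lower, at 1.82 against 2.58 CPM, a log2 change of -0.50 ± 0.16 (edgeR adjusted p = 0.0418). The remaining call, at place 876 of block 06, was 3.44 against 1.74 CPM, a log2 change of 0.99 ± 0.33 (edgeR adjusted p = 0.0384), and its d in that tissue was -0.92. In the same tissue d was -4.95, -0.89 and 2.37 for the 3 gene models before it. The number called fell to 1 without any of WY998 replicate 5, WY308 replicates 4 or 5, RY998 replicate 6 or RY308 replicate 5, and to 2 without WY998 replicate 6 or RY308 replicate 6.

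WY998 and RY998 were set against WY308 and RY308, which asks about R998 against R308. In young seedlings none of 23 passed in edgeR against 7.55% of all genes, and DESeq2 called 2. Of the 21 with at least 0.1 CPM in the higher group, 3 had an unadjusted p under 0.05. In young panicles 1 of 24 passed against 21.6%, and in filling panicles 1 of 24 against 10.6%. The young panicle call was OsR498G0611897500.01, at 7.24 CPM in the hybrids of R998 and 11.2 CPM in those of R308, a log2 change of -0.62 ± 0.22 (edgeR adjusted p = 0.0460). It was lost on leaving out any of 19 of the 27 libraries, RY308 replicate 4 among them. The filling panicle call was OsR498G0612784300.01, at 12.5 and 6.46 CPM, a log2 change of 0.93 ± 0.26 (edgeR adjusted p = 0.0236). It too was lost without RY308 replicate 8, a library that stood apart, and without RY308 replicate 7, WY998 replicate 9 or WY308 replicate 8.

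A p that misses the threshold does not show that the hybrids were alike, so the intervals are given. Among members with at least 0.1 CPM in the higher group, the 95% interval of the log2 change lay within -1 and 1 for 13 of 21, 16 of 22 and 15 of 21 in the 3 tissues for WFB against RFB. For R998 against R308 it was 14 of 21, 17 of 22 and 14 of 21. The median half-width was 0.55, 0.40 and 0.54 in the 3 tissues for both comparisons. The gene models with the widest intervals were those with few counts in the hybrids.

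**Figure D4:**
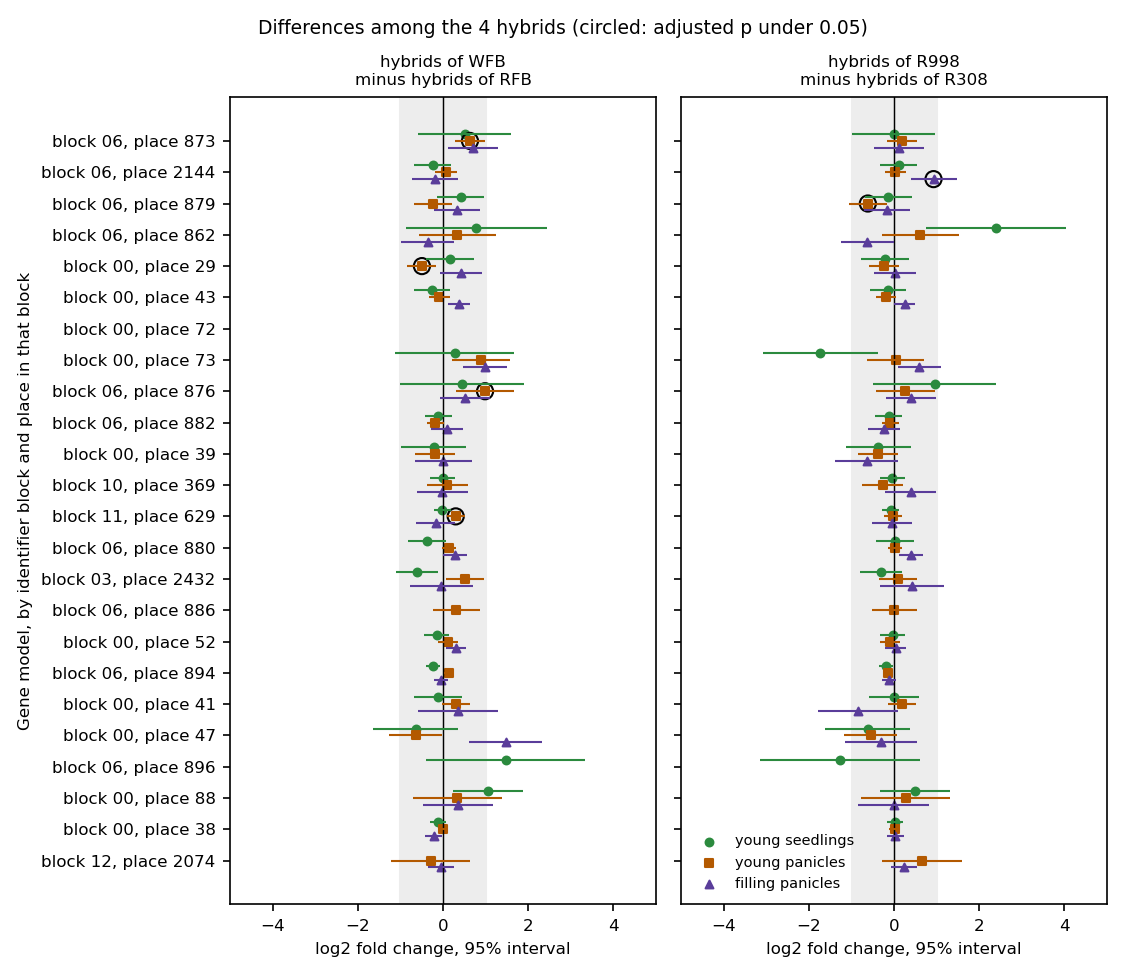
Log2 fold change among the 4 hybrids for each of the 24 gene models, as hybrids of WFB minus those of RFB (left) and hybrids of R998 minus those of R308 (right), with 95% intervals cut at -5 and 5. The grey band spans -1 to 1, circles mark an adjusted p under 0.05, and gene models under 0.1 CPM in both groups are left out; 4 points are circled on the left and 2 on the right.

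Among the parents, WFB and RFB were set against R998 and R308. In young seedlings 2 of 23 members passed against 26.8% of all genes (4 without R998 replicate 3), in young panicles 5 of 24 against 50.0%, and in filling panicles 4 of 24 against 38.8%. In filling panicles OsR498G0611904800.01, in the run of block 06, was at 225.5 CPM in WFB and RFB and 155.7 CPM in R998 and R308, a log2 change of 0.53 ± 0.08 (edgeR adjusted p = 1.7e-05). OsR498G0611894900.01 was lower there, at 33.6 against 54.2 CPM, a log2 change of -0.57 ± 0.16 (edgeR adjusted p = 0.00771). By line, as CPM of the library total, R998 had 86.9 ± 41.5 and R308 33.9 ± 8.82, while WFB had 42.8 ± 6.94 and RFB 28.2 ± 2.65 (SD, n = 3). R308 thus lay between WFB and RFB, and R998 alone lay above both.

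WR was the hybrid that stayed with the parents by the rule, and it was set against its own parents WFB and RFB. In young seedlings 2 of 23 members passed against 15.7% of all genes, both higher in WR, and in young panicles 2 of 24 against 22.8%, both higher. In filling panicles 2 of 24 passed against 1.32%, both lower. OsR498G1119584300.01 was at 153.4 CPM in WR seedlings and 82.5 CPM in WFB and RFB, a log2 change of 0.90 ± 0.11 (edgeR adjusted p = 1.1e-05). OsR498G0022212200.01 was at 43.3 CPM in WR filling panicles and 69.7 CPM in the 2 parents, a log2 change of -0.68 ± 0.16 (edgeR adjusted p = 0.0338). OsR498G0611904800.01 was at 167.1 and 225.5 CPM, a log2 change of -0.43 ± 0.10 (edgeR adjusted p = 0.0382). Neither filling panicle call held without any of RFB replicate 9, WFB replicates 7 or 8, or WR replicates 7 or 9, and the number of calls was 1 without any of 11 other libraries. The young panicle count was 1 without any of RFB replicates 5 or 6, WFB replicates 4 or 5, or WR replicate 6.

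The place of WR among the 4 parents depended on the tissue and on the scaling. As line means of CPM of the library total, WR lay below all 4 parents in filling panicles for 17 of 17 members of at least 1 CPM, and for 49.0% of all gene models of that level. With libraries scaled by median ratios, it was 12 of 17 members and 23.8% of all. In young seedlings WR lay below all 4 parents for none of 14 members and above them for 7 by either scaling. Over all gene models these shares were 23.8% and 19.5% by the library total, and 24% and 25.8% by median ratios. In young panicles it lay above them for 7 of 17 by the library total and 3 of 17 by median ratios, against 27.6% and 21.8% of all gene models. The rule kept the WR mean of each member apart from the 4 hybrids in at least 2 tissues, which limited its place. The members' shares are therefore not read against those of all gene models.

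The tissues were compared in 1 edgeR model over 81 libraries, averaged over the 9 lines. Between tissues 86.1% of all genes changed from young seedlings to young panicles, 86.7% from young seedlings to filling panicles and 86.1% from young to filling panicles. Of the 24 members, 12 rose and 7 fell in young panicles against seedlings, 9 rose and 7 fell in filling panicles against seedlings, and 3 rose and 11 fell in filling against young panicles. In this last comparison 4 rose and 11 fell in the 4 hybrids alone, and 6 rose and 7 fell in the 5 other lines alone. In the averages over 9 lines the members' shares called were below those of all genes. No share over all genes was computed for the 4 hybrids or the 5 other lines alone, so nothing is read from those counts. OsR498G0022205200.01, OsR498G1222092700.01 and the gene models at place 72 of block 00 and place 896 of block 06 had groups without counts. Averages over 9 lines that use such a group have no usable error. All of these gene models were counted among the 24, so the lower shares are not read as a result about the members.

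OsR498G0612784300.01 was at 1206 CPM in seedlings over all lines, 117.9 CPM in young and 82.1 CPM in filling panicles. It fell by 3.04 ± 0.11 and 3.66 ± 0.11 on the log2 scale from seedlings (edgeR adjusted p = 3.45e-35 and 1.15e-38). The fall to young panicles was 2.66 ± 0.16 in the 4 hybrids and 3.34 ± 0.14 in the 5 other lines, each a log2 decrease. OsR498G0611894900.01 rose from 8.99 to 15.6 CPM between young seedlings and young panicles, a log2 change of 1.10 ± 0.13 (edgeR adjusted p = 4.27e-12). The difference from the other lines thus accompanied opposite tissue patterns in the 2 gene models farthest below.

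OsR498G1222092700.01 changed most between tissues. It was at 0.0280 CPM in seedlings, 0.141 CPM in young and 12.9 CPM in filling panicles. The log2 change from young to filling panicles was 6.59 ± 0.14 (edgeR adjusted p = 1.00e-43). R998, R308 and WFB had no count on it in seedlings, so its log2 change from seedlings has no usable error and is not given. In the 4 hybrids alone the filling panicle level was 14.96 CPM, and in the 5 other lines 11.2 CPM. OsR498G1018218000.01 fell by 2.47 ± 0.12 on the log2 scale from seedlings to young panicles (edgeR adjusted p = 7.42e-28), from 491.9 to 91.2 CPM. OsR498G0611897500.01 fell by 0.67 ± 0.11 from young to filling panicles, from 18.4 to 13.9 CPM (edgeR adjusted p = 2.10e-07). Its fall was 1.11 ± 0.18 in the 4 hybrids and 0.31 ± 0.14 in the 5 other lines on the log2 scale; the difference between these falls was not tested.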

How the data were processed

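Libraries were stranded and depleted of ribosomal RNA, per the labels' protocols. The submitters' processing notes name HISAT2 for alignment; its version, the genome build, the annotation and the counting step were not given in the sources read. The authors deposited read counts per gene model, whole numbers with differing library totals, and FPKM values, used here for gene length and for levels compared between genes. Every table column was matched to a sample by its title, with 3 libraries in each of 27 groups. The members, groups, tests, alternatives and naming rule were chosen with earlier results of these data known.

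The rule used CPM of the library total with a pseudocount of 0.5. Tests were made in R 4.3.3 with edgeR 4.0.16 on the counts: genes kept by filterByExpr (21813 in seedlings, 24748 in young and 25336 in filling panicles; 27316 over all tissues), TMM scaling, a mean for each line (and tissue), glmQLFit and glmQLFTest, two-sided, Benjamini-Hochberg over all genes, threshold 0.05. The standard error was taken from the fold change and its F statistic. Tests were tried on simulated counts. DESeq2 1.42.0, size factors, no filter, a replicate block and leaving out libraries were alternatives. A group at 0 was set to 3 counts for a fold. Totals of 29054241 to 45765805 counts set the precision, and floors cover counting error only. Gene models were named by the largest smallest d, the last rank, the largest change in each tested comparison and the highest FPKM in each direction, with at most 2 higher and 2 lower per comparison. None of the 38714 identifiers matched the name table (39387 genes, another assembly), and no sequence was matched. Genes that share reads with a similar copy are uncertain, because the counting method is not given. Tables were made in Python 3.11.15 with pandas 2.3.3, and figures with matplotlib 3.10.9.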

Additional observations from a re-analysis of the deposited data

Results flagged for a closer look

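For 4 of the 24 gene models, the WR libraries lay wholly on opposite sides of those of WFB and RFB in 2 tissues. This compares 3 libraries of WR with 6 of its parents, as CPM of the library total. The difference between tissues was not tested. The share of all gene models that did so was not computed, so nothing is read from the number 4. The mean of WR was 1.39 times that of WFB and RFB for OsR498G0611894900.01 in young panicles, where all WR libraries were higher, and all were lower in filling panicles. The same pair of tissues separated WR for OsR498G0611897500.01, at 1.179 times in young panicles, and for OsR498G0022209700.01, at 1.116 times. OsR498G1119584300.01 was at 1.935 times in WR young seedlings and lower in WR filling panicles. On that scale WR filling panicles lay below all 4 parents for 49.0% of gene models of at least 1 CPM, and the part of this in the 4 gene models was not tested.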

How the results depend on the processing

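The rule returned 19 to 24 of the 24 gene models under 7 other settings (TMM library sizes, pseudocounts of 0.1 and 1, FPKM, line medians, totals without block 00, without 4 libraries) and 21 to 24 when single libraries were left out; 15 were kept in every one of these settings. Replicate numbers did not pair the samples (same-numbered correlations from -0.748 to 0.74, 38, 32 and 34 of 108 pairs over 0.1). Of 76 counts of calls and members under settings other than leaving out 1 library, 68 stayed within 1.5 times. The 8 others were as follows. With the replicate block, calls in young panicles went from 4 to 2 (hybrids of WFB against RFB) and from 1 to 0 (hybrids of R998 against R308). Without the filter on low counts, the former was also 2, and WR filling panicles had 1 in place of 2. DESeq2 gave 2 (hybrids of R998 against R308, seedlings, from 0), 1 (hybrids of WFB against RFB, filling panicles, from 0) and 2 (hybrids of R998 against R308, filling panicles, from 1). Filling against young panicles had 9 calls in place of 14 without block 00, which removes 10 members by construction. The causes of the other 7 were not tested.

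Leaving out single libraries gave 0 to 1 calls for both hybrid comparisons in seedlings and for hybrids of WFB against RFB in filling panicles, 1 to 5 and 0 to 2 for the hybrid comparisons in young panicles (WFB against RFB and R998 against R308), and 0 to 2 for hybrids of R998 against R308 in filling panicles. The parents gave 2 to 4 calls in seedlings, 4 to 7 in young and 4 to 6 in filling panicles. WR gave 2 calls in seedlings, 1 to 3 in young and 0 to 2 in filling panicles. Depth limits the gene models with few counts: several had under 20 counts over 12 hybrid libraries in a tissue.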
